A study of Mus musculus with 18 samples.

Results

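The hybrid luteoma was compared with the CF-1 granulosa cell tumour, 2 ovarian pathologies of untreated transgenic mice of 5 months. The luteoma was ovarian tissue of the transgenic (LHCTP) F1 hybrid of CF-1 and C57BL/6 mice. The tumour was transgenic (LHCTP) ovarian tissue of the CF-1 strain. Both conditions carried the transgene, which the labels tie to hypersecretion of luteinizing hormone (LH), and neither was labelled as treated. The 4 arrays, 1 of each of 2 chip types for each ovary, were taken by their sample titles from 18 arrays in all. The other 14 arrays held 7 further conditions on the same 2 chip types. These were a CF-1 transgenic ovary of 5 months given hCG, the placental gonadotropin that binds the receptor of LH, and also described as a luteoma, transgenic cystic ovaries of 2 months from the hybrid and from CF-1, and wild-type ovaries of 5 and 2 months from both. The labels name neither the promoter of the transgene, nor the number of mice behind an array, nor whether ovaries were pooled. The description of the tumour's chip B array gives an age of 2 months where its title and source give 5 months, and the title was followed. Strain and pathology changed together between the 2 ovaries and cannot be told apart, and no condition was repeated on a chip type, so no difference below has a test or an error between animals.

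LH acts on a receptor of theca cells, of luteal cells and of the granulosa cells of mature follicles, and raises cyclic AMP there. When an ovulatory follicle luteinizes, its granulosa cells leave the cell cycle, lower the genes of the growing follicle such as those of activin and of estrogen synthesis, and raise those of cholesterol supply and progesterone synthesis. A luteoma is a mass of such luteinized steroid-making cells, while a granulosa cell tumour is made of cells that resemble the granulosa of growing follicles.

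The values are fluorescence intensities of probe sets, in arbitrary units, scaled here to a common trimmed mean within each chip type. A floor of 183.8 units on chip A and 290.7 units on chip B marks the range in which low values cannot be ordered, and the detection limit was 2 floors. Of the probe sets left after controls, 6408 reached the limit on at least 2 of the 9 arrays of their chip type and were compared. The share of probe sets at the limit was 54.5% on the luteoma array and 54.6% on the tumour array of chip A, and 29.0% on both of chip B. The ratio of 3′ to 5′ Gapdh probe sets, a sign of RNA integrity, was 0.985 and 0.938 in the luteoma on chips A and B, against 0.855 and 0.871 in the tumour, and all 18 arrays ran from 0.782 to 1.35. The same ratio of actin was 2.17 and 1.73 in the luteoma, against 2.46 and 2.09 in the tumour. Levels below are scaled units before the floor, and folds and log2 differences use values raised to the floor, so that a fold against an array under the floor is given as "at least". A fold against an array between the floor and the detection limit is called nominal, since background can make up much of such a value. Levels of different genes are not comparable on these arrays.

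Of the 6408 probe sets, 213 stood at least 3-fold higher in the luteoma (3.32%) and 138 at least 3-fold lower (2.15%), together 351 (5.48%). The median log2 difference over all probe sets was -0.03, with 45.5% higher and 52.2% lower at any size. Chip A gave 135 higher and 97 lower, and chip B 78 higher and 41 lower. A single gene symbol could be given to 268 of the 351. Just inside the 3-fold rule stood Npr1, at 1141 units in the luteoma and 379.7 units in the tumour, and just outside it Synpo, at 5038 units in the luteoma and 15090.5 units in the tumour.

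**Figure D1:**
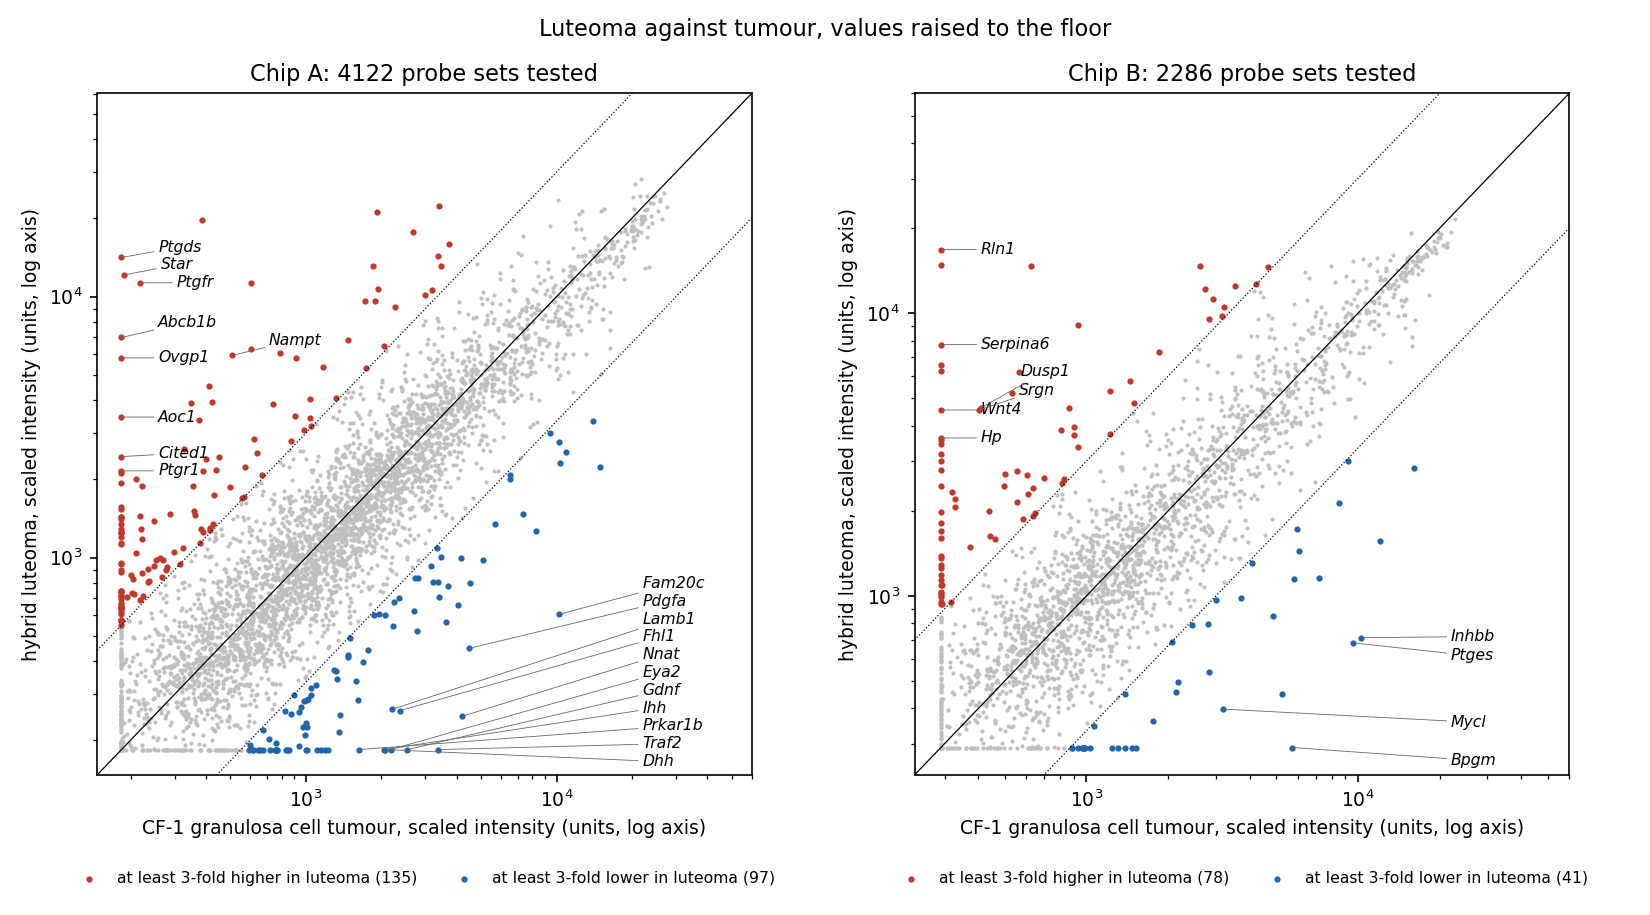
Scaled intensity of every compared probe set in the luteoma (vertical, log axis, units) against the tumour (horizontal, log axis, units), with chip A left and chip B right, values raised to the floor, dotted lines at 3-fold. The points at the left edge lie under the floor in the tumour and those at the bottom edge under the floor in the luteoma, and the labelled genes are the 15 with the largest floored differences on either side.

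How far a difference can be read without repeats was judged from genes measured by more than 1 probe set. For 179 genes measured on both chip types the log2 difference on chip A and that on chip B differed by a median of 0.32, and the SD of their disagreement was 0.67. This spread holds the RNA of the same condition on 2 chips and says nothing of the spread between mice. Of 55 genes with a called probe set and at least 2 compared ones, 10 had every probe set called the same way and 6 had one of the opposite sign. Fibronectin (Fn1), Anxa2, class II H2-Aa and the fatty acid carrier Slc27a1 were the 4 of 18 genes on both chips that were called on both.

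Markers of luteal and of granulosa cells were looked at first beside the labels. Some of each list differed in the direction of the labels and others did not. Of the 15 measured luteal and LH-response genes 3 were called higher in the luteoma and none lower, with a list median of 0.72 on the log2 scale. Of the 16 measured genes of granulosa cells in growing follicles 6 were called lower in the luteoma and 2 higher, with a median of -0.90. Over all 3916 named genes the median was -0.02, with 132 called higher and 88 lower. At any size 1812 of the 3916 were higher and 2022 lower, and the lists below are to be read beside these counts. The mean log2 level of the luteal list was 11.97 in the luteoma and 10.73 in the tumour. The other 7 conditions, wild types included, ran from 11.86 to 12.06, so that the tumour alone lay outside them. That of the granulosa list was 10.60 in the luteoma, 11.50 in the tumour and 10.69 to 11.30 elsewhere. The progesterone-making enzyme Hsd3b1 was low in both ovaries, and 2 of the granulosa genes, Wt1 and Kitl, were lowest in the tumour. In whole ovaries fewer cells of a type and less RNA per cell cannot be told apart.

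Cholesterol delivery to the mitochondrion held the widest gap of the steroid route. Star, the protein that moves cholesterol to the inner mitochondrial membrane and so sets the pace of steroid synthesis, stood at 12108 units in the luteoma, against 188 units in the tumour, nominally 64.4-fold higher, and at 11263 to 22158 units in the other 7 conditions. With the floor doubled, which raises the tumour to the detection limit, the log2 difference of Star was 5.04 in place of 6.01. The luteoma lay inside the range of the other ovaries and the tumour alone below it. Lipe, the lipase that frees stored cholesterol esters, stood at 805 units in the luteoma and 234 units in the tumour, nominally 3.44-fold higher. Cyp11a1, which cleaves the cholesterol side chain, was at 23382 units in the luteoma, against 10175 units in the tumour, a gap of 2.30-fold that fell short of the 3-fold rule. Its electron donor ferredoxin, Fdx1, was at 21288 units in the luteoma and 12627 units in the tumour, 1.69-fold apart. The receptor for high-density lipoprotein, Scarb1, was at 18191 units in the luteoma, against 12525 units in the tumour, 1.45-fold apart. Of the 10 measured delivery and cleavage genes 8 were higher in the luteoma, 2 of them called, and Stard3 and Npc1 were slightly lower, with a list median of 0.71.

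The enzymes after side-chain cleavage did not differ in one direction. Cyp17a1, the theca enzyme that makes androgens from progestins, stood at 9578 units in the luteoma and 1727 units in the tumour, 5.55-fold higher, and ran at 3968 to 8023 units elsewhere, so that the luteoma was the highest and the tumour the lowest of the 9. Hsd17b1, the granulosa enzyme that makes estradiol from estrone, went the other way at 2827 units in the luteoma, against 16047 units in the tumour, 5.68-fold lower, and only the tumour lay outside the 2547 to 5765 units of the others. Hsd3b1 was at 1664 units in the luteoma and 1149.7 units in the tumour, 1.45-fold apart. These were the lowest of the 9 for Hsd3b1, since it stood at 39328 units in the hCG-treated ovary, at 21960.2 to 22977 units in the 3 untreated CF-1 ovaries outside the tumour, at 16166 units in the hybrid wild type of 2 months, and at 3209 and 3612 units in the hybrid cystic and 5-month wild-type ovaries. Hsd17b4, which inactivates estradiol, was at 1736 units in the luteoma, against 1938 units in the tumour.

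**Figure D2:**
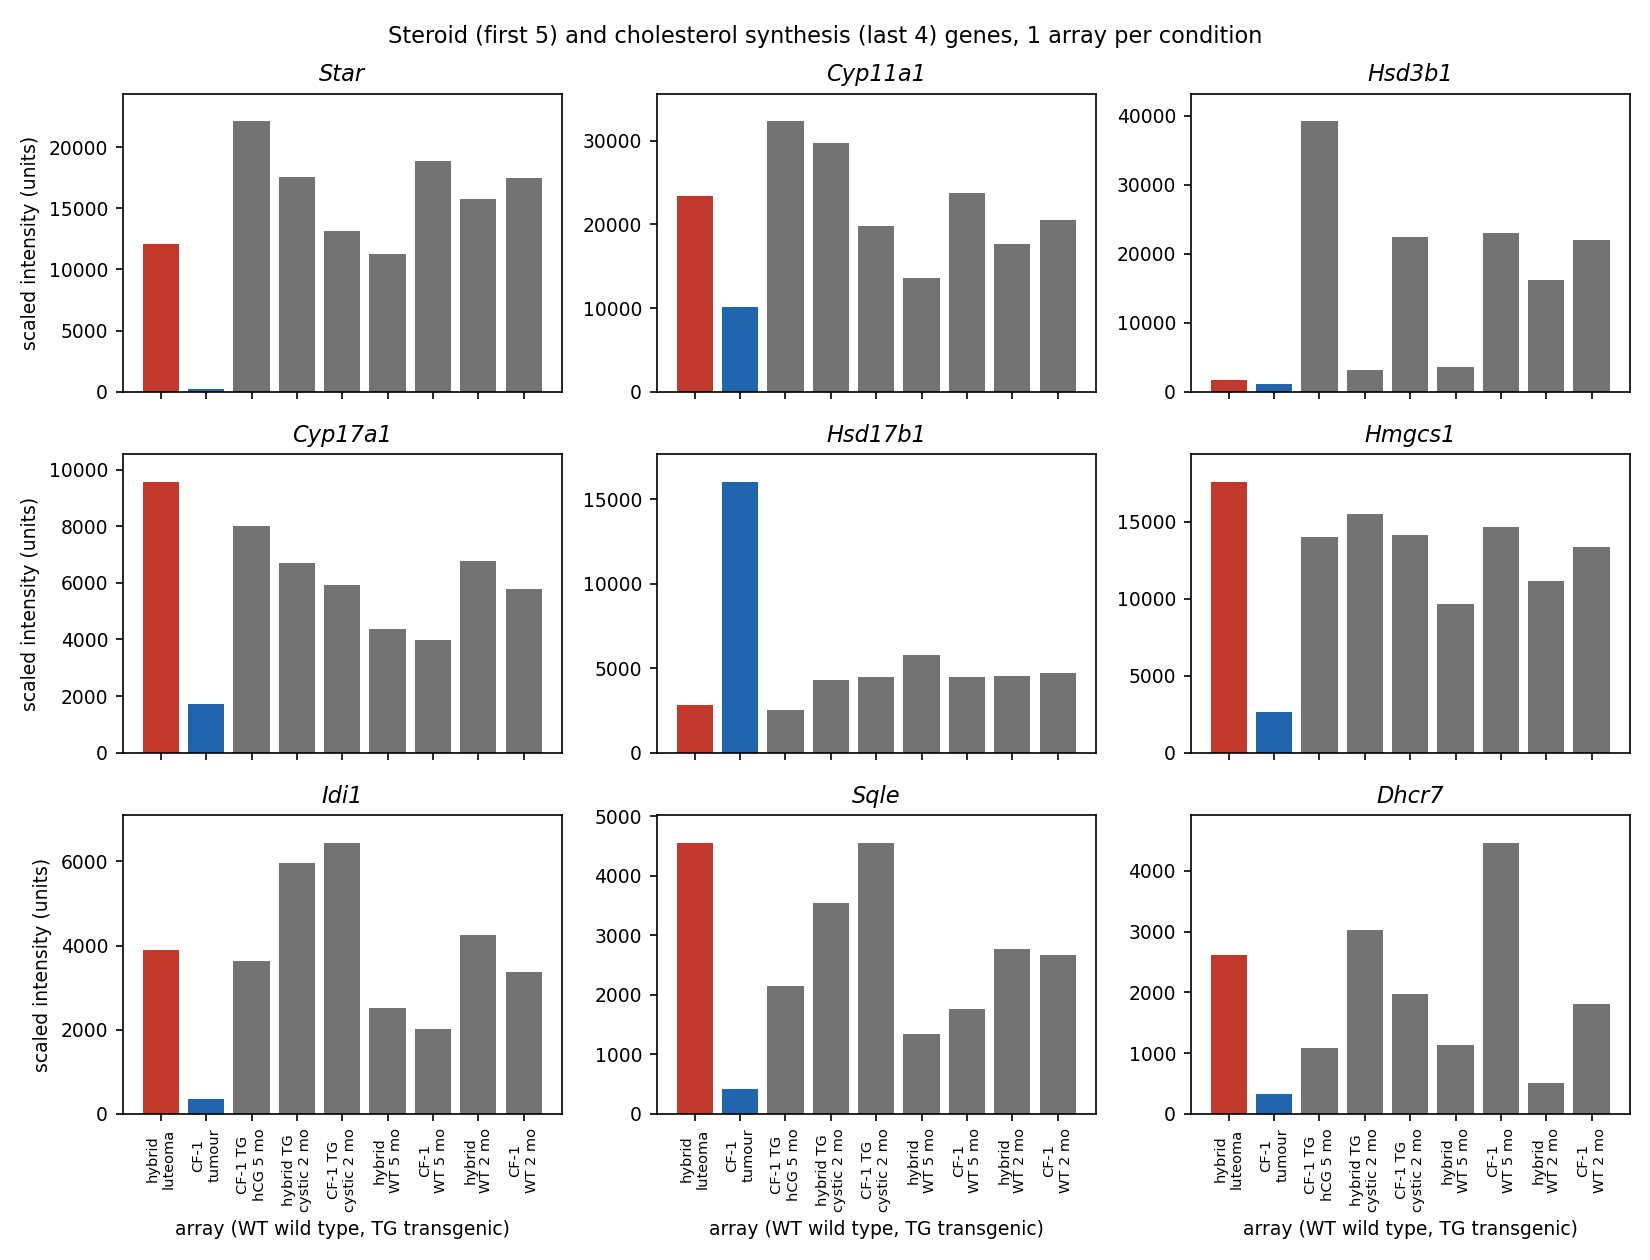
Scaled intensity (units) of 5 steroid genes and 4 cholesterol synthesis genes in each of the 9 conditions, 1 array each, with the luteoma in red, the tumour in blue and the others in grey. Star and the 4 synthesis genes stand out by a low tumour bar, Hsd17b1 by a high tumour bar, and Hsd3b1 by low bars in both.

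Cells make cholesterol from acetyl-CoA through mevalonate, isoprenes, squalene and lanosterol, under the transcription factor SREBP2 when sterols are scarce. This list had the highest median of the 31 examined, 2.86 on the log2 scale, with 7 of 8 measured genes higher in the luteoma and 5 called. Among all 3916 named genes 1812 were higher and 132 called higher. Hmgcs1, which makes the HMG-CoA that enters the mevalonate route, stood at 17619 units in the luteoma and 2678 units in the tumour, 6.58-fold higher, and its weaker probe set was also called, at 695 units in the luteoma, against 21.3 units in the tumour. Mvd, which decarboxylates mevalonate diphosphate, was at 1537 units in the luteoma and -563 units in the tumour, at least 8.36-fold higher. In both of these early steps the luteoma was the highest of the 9. The tumour was the lowest in Hmgcs1, while in Mvd 3 wild types were under the floor as well.

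In most later steps the tumour was again the lowest of the 9, but the luteoma was the highest only in the brighter probe set of Lss. Idi1, which interconverts the isoprene units, stood at 3905 units in the luteoma, against 349 units in the tumour, nominally 11.2-fold higher, against 2024 to 6449 units elsewhere. Sqle, the squalene oxygenase, was at 4555 units in the luteoma and 411 units in the tumour, 11.1-fold higher, and the CF-1 cystic ovary was level with the luteoma. Dhcr7, the last step to cholesterol, was at 2611 units in the luteoma, against 327 units in the tumour, nominally 7.99-fold higher, while the others ran from 512 units in the hybrid wild type of 2 months to 4468 units in the CF-1 one of 5 months. Lss, which closes the rings to lanosterol, was at 3653 units in the luteoma and 1359.6 units in the tumour by its brighter probe set, 2.69-fold higher. Its other probe set was called, at 2389 units in the luteoma, against 399.7 units in the tumour, with the hybrid and CF-1 cystic ovaries above the luteoma at 2427 and 2526 units. Ebp, a sterol isomerase, was at 1251 units in the luteoma and 699 units in the tumour, and not called. Fdft1, squalene synthase, was at 7486 units in the luteoma, against 7604 units in the tumour. By the brightest probe set the tumour was thus the lowest of the 9 ovaries in 6 of these 8 genes, with Mvd, tied under the floor, and Fdft1 the exceptions.

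Promoter sequence is shown for genes of this list because they differed in one direction, from the 250 bases before the RefSeq start on GRCm38.p6. RefSeq windows were found for Hmgcs1, Mvd, Idi1, Dhcr7 and Lipe among the called steroid and cholesterol genes, and not for Star, Cyp17a1, Hsd17b1 and Sqle. The letters searched on both strands were AAGGTCA, a site of the NR5A receptors, TGACGTC, part of the cyclic AMP response element, TCACCCC, a core of sterol response elements, and TGACTCA, the AP-1 site. The cyclic AMP and AP-1 letters and the reverse of the NR5A letters share the bases TGAC, and no printed match overlaps another. They occur in 4.08%, 2.78%, 4.31% and 4.46% of all 32851 promoter windows of that length. The Hmgcs1 window, chr13:119690101-119690350 on the plus strand, held the NR5A letters on the opposite strand 246 bases before the start and the sterol core 137 bases before it, both in capitals. The first of 3 Dhcr7 windows, chr7:143822917-143823166 on the plus strand, held the NR5A letters 51 bases before the start, and the third held the AP-1 letters. The windows of Mvd, Idi1 and Lipe held none of the 4, and that of Idi1, chr13:8885356-8885605 on the plus strand, is printed beside them.
Hmgcs1: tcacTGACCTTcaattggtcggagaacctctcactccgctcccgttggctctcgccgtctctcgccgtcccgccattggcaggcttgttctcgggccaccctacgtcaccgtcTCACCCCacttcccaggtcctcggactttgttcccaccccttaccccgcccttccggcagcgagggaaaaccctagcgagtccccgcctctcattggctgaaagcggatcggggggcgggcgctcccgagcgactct
Dhcr7: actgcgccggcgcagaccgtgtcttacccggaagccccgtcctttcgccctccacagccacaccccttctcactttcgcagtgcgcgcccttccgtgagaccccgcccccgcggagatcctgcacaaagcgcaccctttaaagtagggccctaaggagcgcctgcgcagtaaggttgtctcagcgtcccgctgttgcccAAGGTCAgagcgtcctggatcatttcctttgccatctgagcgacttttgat
Idi1: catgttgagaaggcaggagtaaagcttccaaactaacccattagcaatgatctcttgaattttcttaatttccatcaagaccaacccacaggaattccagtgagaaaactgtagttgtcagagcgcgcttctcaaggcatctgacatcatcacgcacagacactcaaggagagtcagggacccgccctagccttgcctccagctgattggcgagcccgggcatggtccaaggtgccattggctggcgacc
Of 4 called cholesterol synthesis genes with a window, 1 held the sterol core, and a match describes letters in this window only.

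The receptor, transport and inhibitor genes of luteal cells came next. Ptgfr, the receptor through which prostaglandin F2alpha ends the life of the corpus luteum, stood at 11299 units in the luteoma and 217 units in the tumour, nominally 52.0-fold higher, and at 7675 to 15874 units elsewhere. Its log2 difference was 5.70, and 4.94 with the floor doubled. Abcb1b, a drug and steroid efflux pump, was at 6971 units in the luteoma, against 22.9 units in the tumour, at least 37.9-fold higher, and at 2760.2 to 8196 units elsewhere. Timp1, a metalloprotease inhibitor that LH induces, was at 14738 units in the luteoma and 2618 units in the tumour, 5.63-fold higher. In these 3 the tumour alone lay outside the other ovaries. By the brightest probe set the remaining 12 luteal genes were not called, among them the cell cycle inhibitor Cdkn1b at 3403 units in the luteoma, against 1333 units in the tumour, Lcn2 at 819 units in the luteoma and 212 units in the tumour, at least 2.82-fold higher, and the nuclear receptor Nr5a2 at 11851 units in the luteoma, against 16653 units in the tumour. The weakest of the other 3 Nr5a2 probe sets was called lower, at 282 units in the luteoma and 979 units in the tumour. A weaker probe set of Cdkn1a on chip A was called higher, at 554 units in the luteoma, against 103 units in the tumour. That of chip B was near level, at 752 units in the luteoma and 718 units in the tumour. Apoe and Mt1 were level, at 11297 and 11462 units in the luteoma, against 11897 and 11978 units in the tumour.

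Prostaglandin enzymes ran in opposite directions. Ptgds, the prostaglandin D synthase, was at 14122 units in the luteoma and -199 units in the tumour, at least 76.8-fold higher, and the other conditions ran from 61.3 units to 4392 units in the hybrid cystic ovary. The luteoma stood alone above all others here. Ptges, the inducible prostaglandin E synthase, was at 682 units in the luteoma, against 9639 units in the tumour, 14.1-fold lower, and at 787 to 1349 units elsewhere, so that the tumour stood far above and the luteoma just below the others. Ptgis, the prostacyclin synthase, was at 4805 units in the luteoma and 2016 units in the tumour by its brighter probe set. By the other it was called higher, at 3191 units in the luteoma, against 1052 units in the tumour. Ptgr1, a reductase that inactivates prostaglandins and leukotriene B4, was called higher by both its probe sets, at 2149.6 and 2523 units in the luteoma and -43.2 and 639 units in the tumour. The list of 8 measured prostaglandin genes had 2 called higher, 1 lower and a median of -0.24.

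Among genes of the growing follicle, the activin subunits led. Inhbb, the activin beta B subunit, stood at 711 units in the luteoma, against 10279 units in the tumour, 14.4-fold lower, and at 1190.2 to 5987 units elsewhere. Inhba, the beta A subunit, was at 1562 units in the luteoma and 12028 units in the tumour, 7.70-fold lower, and at 1895 to 5891 units elsewhere. Both subunits were lowest in the luteoma and highest in the tumour of all 9 ovaries. Fst, the binding protein that blocks activin, was at 797 units in the luteoma, against 2804 units in the tumour, 3.52-fold lower, also with the luteoma lowest and the tumour highest. Inha, whose product turns the beta subunits into inhibin, was near level at 12184 units in the luteoma and 14779 units in the tumour. Tnni3, a troponin subunit on the granulosa list, was at 1728 units in the luteoma, against 5983 units in the tumour, 3.46-fold lower.

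Not every granulosa gene was lower in the luteoma. Wt1, a zinc finger factor of early granulosa cells, stood at 3751 units in the luteoma and 1219 units in the tumour, 3.08-fold higher, with its weaker probe set at 729.9 units in the luteoma, against 198 units in the tumour. Kitl, the ligand by which granulosa cells act on the oocyte and theca, was at 930.0 units in the luteoma and 247 units in the tumour, nominally 3.76-fold higher. Both were lowest in the tumour of all 9. Amh, the hormone of small follicles, was low in both at 837 units in the luteoma, against 415 units in the tumour, while the cystic ovaries had 3913 units in the hybrid and 2916 units in CF-1. The factors Gata4 and Esr2 were lower in the luteoma without a call, at 560.4 and 770.1 units, against 1494 and 1774 units in the tumour. Of the wider list of 18 activin, TGF-beta and BMP genes, Tgfbi, a matrix protein that TGF-beta induces, was the 1 called higher, at 2174 units in the luteoma and 438 units in the tumour, and the list median was -0.07.

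Of 25 growth factor genes 5 were called lower in the luteoma and 3 higher. Of all 3916 named genes 88 were called lower and 132 higher. Desert hedgehog (Dhh) and Indian hedgehog (Ihh), ligands by which granulosa cells act on theca cells, stood at -506 and 55.0 units in the luteoma, against 2073 and 2049 units in the tumour, which is at least 11.3-fold and at least 11.2-fold lower. The other ovaries had at most 617 units of Dhh and 794 units of Ihh. Gdnf, a ligand of the Ret receptor, was at 112 units in the luteoma and 2539 units in the tumour, at least 13.8-fold lower. The platelet-derived growth factor Pdgfa was at 449 units in the luteoma, against 4489 units in the tumour, 9.99-fold lower, against 376 to 853 units elsewhere, while Pdgfrb, a receptor of this growth factor family, went the other way at 1096 units in the luteoma and 139 units in the tumour, at least 3.77-fold higher. Igfbp2, a binder of insulin-like growth factors, was at 657 units in the luteoma, against 4045 units in the tumour, 6.15-fold lower. In Dhh, Ihh, Gdnf, Pdgfa and Igfbp2 the tumour was the highest of the 9. In Ihh and Gdnf the luteoma was also the lowest of the 9. The remaining 17 of 25 growth factor genes were not called, among them Igf2 at 815 units in the luteoma and 1047 units in the tumour and Vegfa at 971 units in the luteoma, against 566 units in the tumour, and the list median was -0.11.

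Wnt4, a ligand that ovaries use in female gonad development and in luteal cells, stood at 4550.3 units in the luteoma and -703 units in the tumour by one probe set, at least 15.7-fold higher. The other gave 3574 units in the luteoma, against -193 units in the tumour. The cystic ovaries came next by both probe sets, at 1516 and 1977 units in the hybrid and 2007 and 2318 units in CF-1. The wild types had at most 388 units by the first and 745 units by the second. The luteoma was the highest of the 9 by both, unlike in Star or Ptgfr. Of the 10 measured Wnt pathway genes no other was called, and Ctnnb1, beta-catenin, was at 2185 units in the luteoma and 1816 units in the tumour, for a list median of 0.09.

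Further genes of the luteoma side came by the rule of largest differences. Rln1, relaxin, a hormone that loosens connective tissue before birth, stood at 16825 units in the luteoma, against 21.8 units in the tumour, at least 57.9-fold higher, and the hybrid and CF-1 cystic ovaries had 14761 and 3450.4 units. Serpina6, the plasma carrier of glucocorticoids and progesterone, was at 7759 units in the luteoma and -3.76 units in the tumour, at least 26.7-fold higher, and was above the limit in the transgenic cystic ovaries but under the floor in all 4 wild types. Relaxin and Serpina6 were thus high in transgenic ovaries other than the tumour, except in the hCG-treated one at 359 and 513 units. Ovgp1, the oviductin of oviduct epithelium, was at 5823 units in the luteoma, against 109 units in the tumour, at least 31.7-fold higher, although the luteoma was itself below the 9338 to 19169 units of the others.

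Metabolic and signalling genes followed. Aoc1, the diamine oxidase that degrades histamine, stood at 3455 units in the luteoma and 155 units in the tumour, at least 18.8-fold higher. Cited1, a transcriptional coactivator, was at 2437 units in the luteoma, against -463 units in the tumour, at least 13.3-fold higher, and Hp, haptoglobin, was at 3623 units in the luteoma and 216 units in the tumour, at least 12.5-fold higher. The tumour was the lowest of the 9 in these 3 and the luteoma the highest in Aoc1 and Hp. Nampt, the rate-limiting enzyme of NAD salvage, was at 5952 units in the luteoma, against 509 units in the tumour, 11.7-fold higher. The MAP kinase phosphatase Dusp1 was at 4621 units in the luteoma and 408 units in the tumour, nominally 11.3-fold higher, and Srgn, the proteoglycan of secretory granules, was at 4552 units in the luteoma, against 403 units in the tumour, nominally 11.3-fold higher. In these too the luteoma was the highest and the tumour the lowest. Snap91, a clathrin adaptor best known from synapses, was at 1929 units in the luteoma and 9.26 units in the tumour, at least 10.5-fold higher. Sdc4, a heparan sulfate proteoglycan of the cell surface, was at 2227 units in the luteoma, against 571 units in the tumour, 3.90-fold higher, but its brighter probe set gave 7040.4 units in the luteoma and 3492 units in the tumour, under 3-fold.

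On the tumour side stood Bpgm, the enzyme of red cells that makes 2,3-bisphosphoglycerate, at -143 units in the luteoma, against 5718 units in the tumour, at least 19.7-fold lower. It stood at no more than 686 units in any other ovary, so that the tumour was alone. Fam20c, a kinase of secreted proteins, was at 606 units in the luteoma and 10242 units in the tumour, 16.9-fold lower, against 328 to 1368 units elsewhere. Nnat, an imprinted membrane protein, was at 246 units in the luteoma, against 4180.2 units in the tumour, nominally 17.0-fold lower, and at -92.1 to 1173 units elsewhere. Its log2 difference was -4.09, and -3.51 with the floor doubled. Eya2, a cofactor of homeobox transcription factors, was at 136 units in the luteoma and 2177 units in the tumour, at least 11.8-fold lower. All 4 were higher in the tumour than in any other ovary. In Fam20c and Nnat the luteoma was lower than every other ovary but the hCG-treated one.

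Intracellular genes of the tumour side included Fhl1, a LIM domain protein, at 259 units in the luteoma, against 2372 units in the tumour, nominally 9.15-fold lower. The brighter probe set of Fhl1 was not called, at 2145 units in the luteoma and 5614 units in the tumour. Prkar1b, a regulatory subunit of the cyclic AMP-dependent kinase, was at -21.3 units in the luteoma and 1622 units in the tumour, at least 8.83-fold lower, and its chip B probe set gave 587 units in the luteoma, against 1367 units in the tumour. Mycl, a transcription factor of the Myc family, was at 398 units in the luteoma and 3182 units in the tumour, nominally 8.004-fold lower. Mia, a secreted protein of cartilage, was at 1149 units in the luteoma, against 5821 units in the tumour, 5.07-fold lower, although the luteoma too was above the other 7. In Traf2, an adaptor of tumour necrosis factor receptors, the low side was the luteoma, at -105 units in the luteoma and 3365 units in the tumour, at least 18.3-fold lower, with 778 to 5942 units elsewhere.

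The luteoma also stood below all 8 other ovaries in 5 genes with smaller differences. They were Spr, a sepiapterin reductase, at 284 units in the luteoma, against 1616 units in the tumour, Nr2c2ap at 706 units in the luteoma and 3396 units in the tumour, the transcript U90926 at 232 units in the luteoma, against 1002 units in the tumour, the glucose-6-phosphatase G6pc at 215 units in the luteoma and 1354 units in the tumour, and the DNA helicase Ercc2 at 119 units in the luteoma, against 1187 units in the tumour. Their folds ran from nominally 4.32-fold to at least 6.46-fold, the last as a bound. The second probe set of Spr did not follow, at 3988 units in the luteoma and 4827 units in the tumour.

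**Figure D3:**
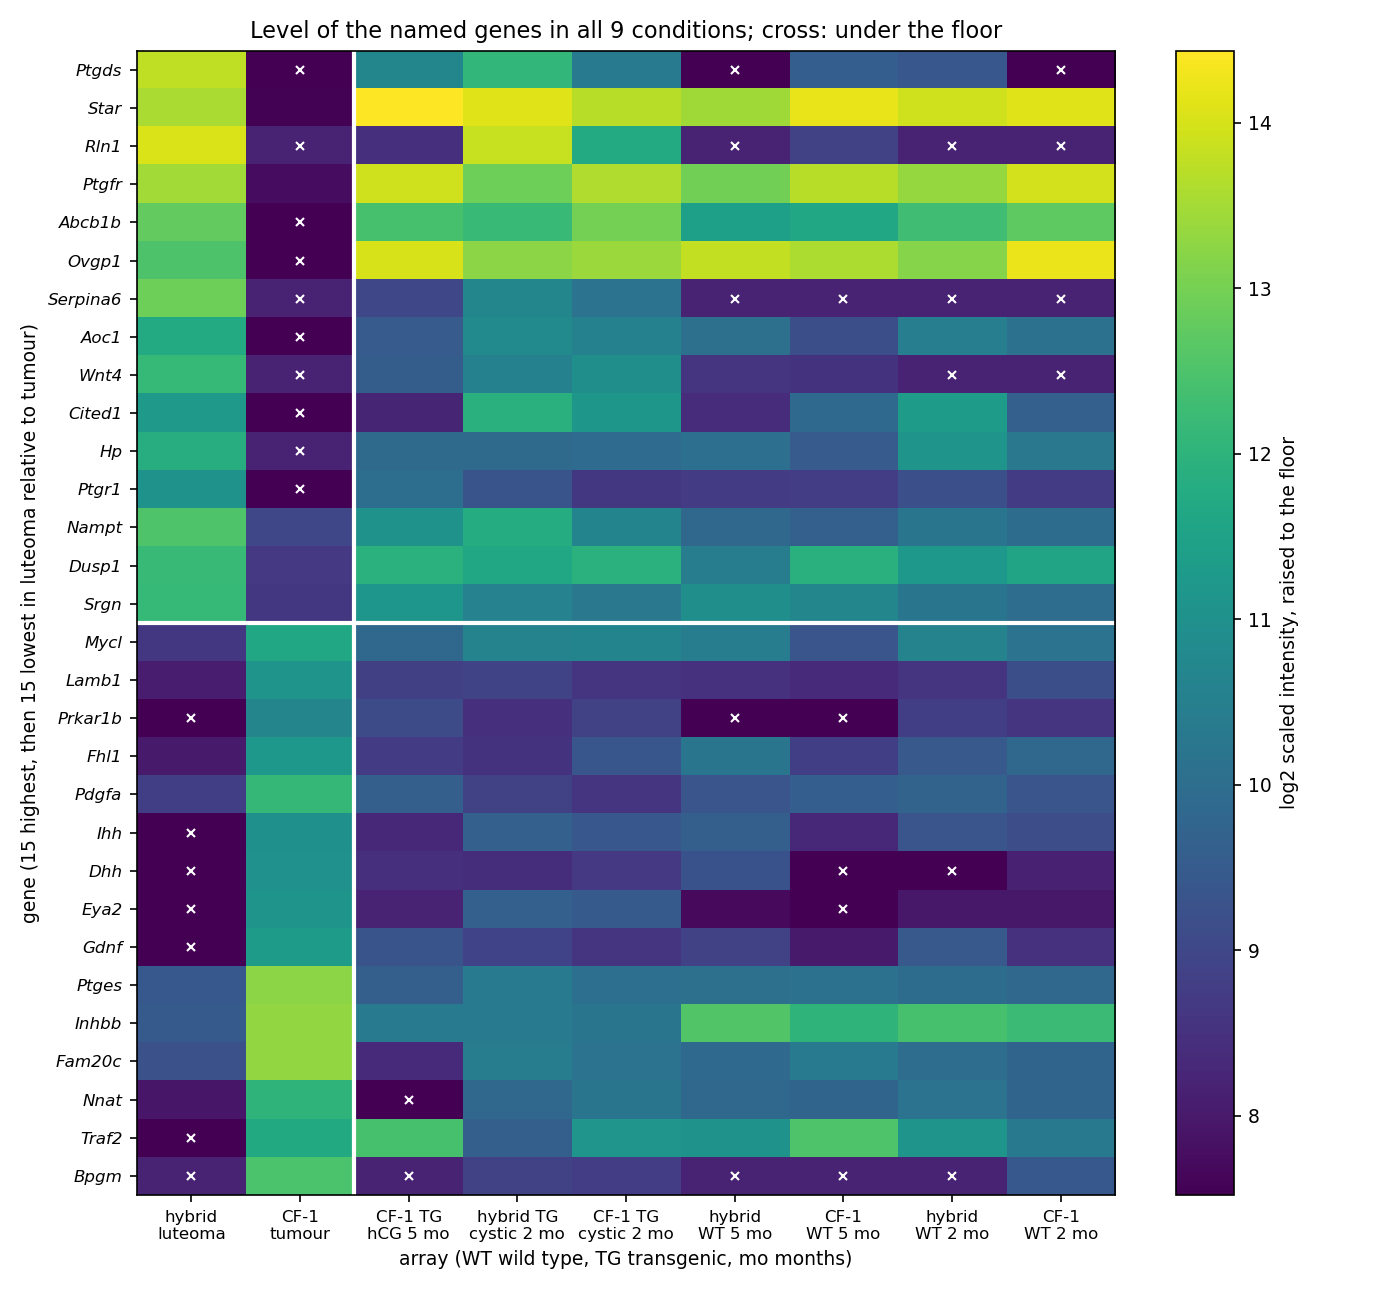
Level of the 15 genes highest and the 15 lowest in the luteoma relative to the tumour, as log2 of scaled intensity raised to the floor, over the 9 conditions (1 array each), with crosses where an array was under the floor. Among the upper genes Star, Ptgfr, Abcb1b and Ovgp1 are dark in the tumour alone, whereas Ptgds and Serpina6 are brightest in the luteoma, and most of the lower genes are bright in the tumour alone.

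Of 8 matricellular genes 1 was called higher and 3 lower, and of 31 collagens, laminins and proteoglycans 1 higher and 4 lower, beside 132 higher and 88 lower of all 3916 named genes. Fn1, fibronectin, stood at 1259.7 units in the luteoma, against 8249 units in the tumour on chip A, 6.55-fold lower, and on chip B it was at 1157 units in the luteoma and 7205 units in the tumour. Ccn2, a secreted regulator of connective tissue growth, was at 2224 units in the luteoma, against 14966 units in the tumour, 6.73-fold lower, and Thbs1, thrombospondin, was at 982 units in the luteoma and 5110.5 units in the tumour, 5.21-fold lower. The tumour was the highest of the 9 for these 3. Tnc, tenascin C, was at 2061 units in the luteoma, against 327 units in the tumour, nominally 6.31-fold higher, with the tumour lowest. In the larger list the laminin chain Lamb1 at 262 units in the luteoma and 2211 units in the tumour, the fibulins Fbln1 at 850.4 units in the luteoma, against 4873 units in the tumour and Fbln2 at 1441 units in the luteoma and 6071 units in the tumour, and the proteoglycan Vcan at 804 units in the luteoma, against 3356 units in the tumour were the 4 called lower, and Tnc the 1 called higher. No collagen chain was called, with Col1a2 at 2371 units in the luteoma and 6117 units in the tumour and Col6a2 at 8828 units in the luteoma, against 4801 units in the tumour, and the list median was -0.20. Of 24 proteases and inhibitors only Timp1 was called by the brightest probe set, with a median of -0.01. Weaker probe sets of Mgp, on the list of 31, and of Cst3, on that of 24, were called lower. They stood at 113 and 189 units in the luteoma, against 1007 and 941 units in the tumour. The brightest probe sets of Mgp and Cst3 were near level, at 12752 and 14957 units in the luteoma and 12896 and 13612 units in the tumour.

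Of 20 adhesion and junction genes 1 was called lower and 2 higher, beside 88 lower and 132 higher of all 3916 named genes. Cdh2, N-cadherin, which joins granulosa cells, stood at 624 units in the luteoma and 2693 units in the tumour, 4.32-fold lower. Lsr, a protein of tricellular junctions, was at 3353 units in the luteoma, against 374 units in the tumour, 8.95-fold higher, and Ocln, occludin of tight junctions, was at 575 units in the luteoma and 74.4 units in the tumour, at least 3.13-fold higher. The gap junction protein of granulosa cells, Gja1, was at 9874 units in the luteoma, against 14836 units in the tumour, not called. The median of the list was near 0.

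Epithelial genes were higher in the luteoma as a group. Over all 3916 named genes 1812 were higher and 132 called higher. Of 19 measured genes of surface and oviduct epithelium 16 were higher, 7 of them called, and the list median was 0.63. Besides Ovgp1, Lsr, Anxa2 and S100a6, these were the keratins Krt18 at 1247 units in the luteoma and 151 units in the tumour and Krt19 at 1403 units in the luteoma, against 160.4 units in the tumour, and the epithelial surface protein Plet1 at 1568 units in the luteoma and 166 units in the tumour. Anxa2, an annexin of membranes, was at 14302 units in the luteoma, against 3366 units in the tumour. S100a6, a calcium-binding protein, was at 22294 units in the luteoma and 3389.7 units in the tumour on chip A, while its chip B probe set was under the floor in both. The summed level of the list was 58248 units in the luteoma, against 12234 units in the tumour, and ran from 55013 to 97259 units in the other 7. The tumour was therefore the ovary that stood apart, and Krt19 and Plet1 in the luteoma were not above the other ovaries. The defining epithelial markers Epcam, Cdh1 and Pax8 were under the detection limit in both. What part epithelial cells had in these differences was not tested.

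Of 17 genes of macrophages and antigen presentation 16 were higher in the luteoma, 4 of them called. Beside them, 1812 of all 3916 named genes were higher and 132 called higher. The class II chains H2-Aa and H2-Ab1 stood at 3947 and 1359.6 units in the luteoma and 422 and -179 units in the tumour, which is 9.36-fold and at least 4.68-fold higher. Of the other 4 H2-Aa probe sets 3 were called higher, at log2 differences of 1.65 to 1.93, and 1 was not, at 1024 units in the luteoma, against 815 units in the tumour. Their chaperone Cd74 was at 4640.0 units in the luteoma and 859.7 units in the tumour, 5.40-fold higher, and the lysosomal protease Lgmn was at 12200.2 units in the luteoma, against 2736 units in the tumour, 4.46-fold higher. Members that were not called included Cd68 at 1923 units in the luteoma and 1863 units in the tumour, C1qa at 2549 units in the luteoma, against 2986 units in the tumour and Lyz2 at 28289 units in the luteoma and 21815 units in the tumour. The list had a median of 0.48, and its summed level was 83436 units in the luteoma and 49697 units in the tumour. The hCG-treated ovary, at 84521 units, and the CF-1 wild type of 5 months, at 122309 units, were above the luteoma.

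Endothelial genes were higher in the luteoma at 6 of 7, with a median of 1.15. All 3916 named genes held 1812 higher and 132 called higher. Kdr, the VEGF receptor, stood at 3357 units in the luteoma, against 933 units in the tumour, 3.60-fold higher, and was the 1 called of the 7. Cdh5, the cadherin of endothelial junctions, was at 1888 units in the luteoma and 632 units in the tumour, and Eng, a TGF-beta co-receptor, was at 11920.0 units in the luteoma, against 4357 units in the tumour. The summed level was 22492 units in the luteoma and 8534 units in the tumour, and 7434 to 15272 units elsewhere, so that the luteoma was the highest of the 9.

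Other cell types gave small or mixed differences. Their counts stand beside 132 called higher and 88 called lower of all 3916 named genes. Globins were near level, with Hba-a1 at 10591 units in the luteoma, against 14588 units in the tumour, and Alas2, the heme enzyme of red cell precursors, was at 2081 units in the luteoma and 798 units in the tumour, so that Bpgm stood apart from its list, whose median was -0.28. Of 9 lymphocyte and mast cell genes the mast cell protease Cpa3 was called, at 645 units in the luteoma, against -112 units in the tumour, with a median of -0.05. None of 9 smooth muscle genes was called, with a median of 0.20. Among 7 fat cell genes Fabp4 was called higher at 732 units in the luteoma and 50.8 units in the tumour and Pparg lower at 338 units in the luteoma, against 1591 units in the tumour, with Adipoq, the defining fat hormone, under the limit in both at 235 units in the luteoma and 154 units in the tumour and a median of 0.06. Of 4 oocyte genes Zp2, a protein of the egg coat, was called at 669 units in the luteoma, against 156 units in the tumour, and the others ran from 309 units in the hCG-treated ovary to 2595 units in the hybrid wild type of 2 months. The summed level of the oocyte list was 3107 units in the luteoma and 1526 units in the tumour. It was 2441 units in the hCG-treated ovary, 2669 units in wild-type CF-1 at 5 months and 6719 to 8322 units in the remaining ovaries. Of 3 theca genes Cyp17a1 was the 1 called, with a median of 0.27. All 5 measured genes of the ovulatory response were higher without a call, with Plat, the plasminogen activator, at 2562 units in the luteoma and 945 units in the tumour and a median of 0.92.

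**Figure D4:**
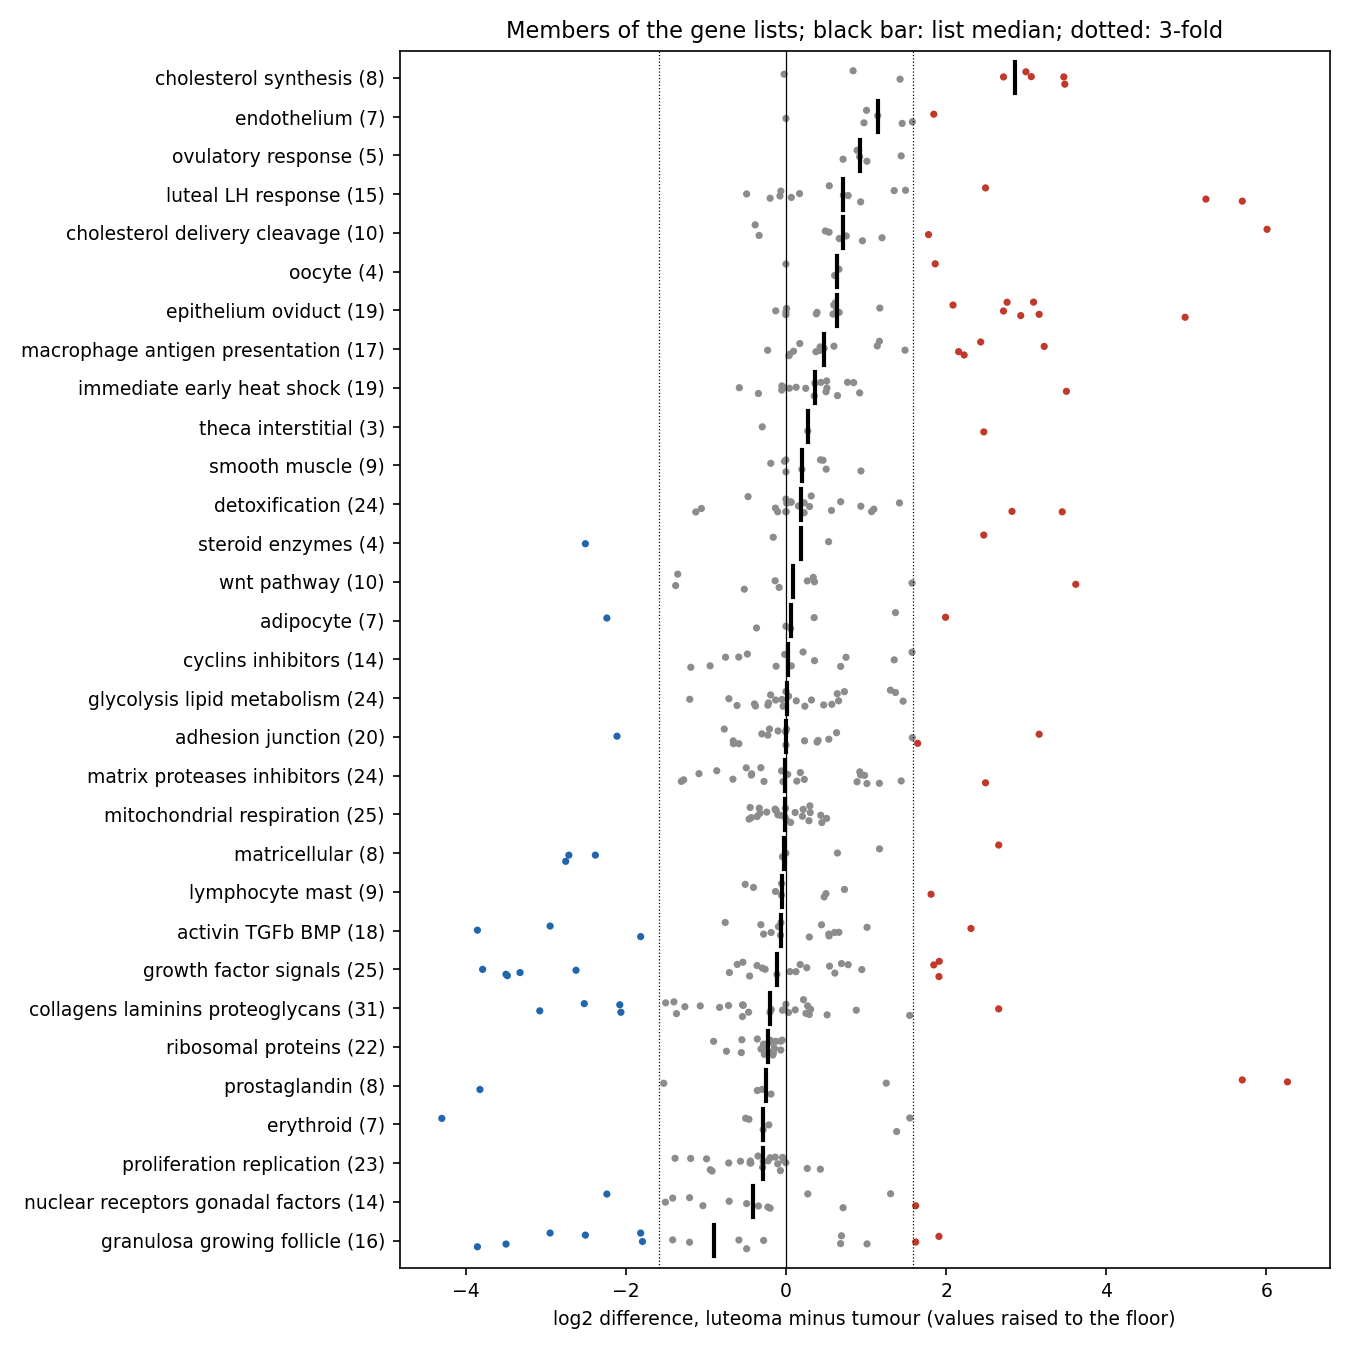
Log2 difference of luteoma minus tumour for each measured gene of the 31 lists (number of genes in brackets), by the brightest probe set of a gene, with a black bar at the list median, dotted lines at 3-fold, red for called higher and blue for called lower. Cholesterol synthesis lies at the top with a median of 2.86 and granulosa genes of the growing follicle at the bottom with -0.90, while 9 lists with medians from -0.24 to 0.09 changed sign between settings.

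Genes of cell division stood slightly lower in the luteoma than in the tumour. Of 23 measured replication and mitosis genes 21 were lower and none was called, with a median of -0.29. The summed level of this list was 21124 units in the luteoma and 28824.5 units in the tumour. It was 16728 units in the hCG-treated ovary, 19610 units in wild-type CF-1 at 5 months and 29031 to 30916 units in the remaining ovaries. The tumour was thus not the highest of the 9. Examples were Ccnb2, a mitotic cyclin, at 496 units in the luteoma, against 1131 units in the tumour, Mki67 at 1029.6 units in the luteoma and 1405 units in the tumour and Pcna at 1454 units in the luteoma, against 1497 units in the tumour. Top2a, a topoisomerase of dividing cells, was called lower by its chip A probe set at 224 units in the luteoma and 1011 units in the tumour. It was not called by that of chip B, at 443 units in the luteoma, against 853 units in the tumour. Over all probe sets 52.2% were lower. The cyclins and inhibitors of early cell cycle had a median of 0.03, with Cdk4 at 6031 units in the luteoma and 11626 units in the tumour.

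By the brightest probe set, housekeeping and stress lists held few called genes or none. All 3916 named genes held 132 called higher and 88 called lower. All 22 ribosomal protein genes were lower, none by 3-fold, with a median of -0.23. The 25 genes of mitochondrial respiration had a median of -0.02, and the 24 of glycolysis and lipid metabolism 0.02. Acly, the enzyme that supplies acetyl-CoA for lipid synthesis, was at 13282 units in the luteoma, against 4817 units in the tumour, and not called. Its weaker probe set on chip B was called higher, at 1631 units in the luteoma and 442 units in the tumour. Of 19 immediate early and heat shock genes, known to react to tissue handling, 14 were higher, Dusp1 alone was called, and the median was 0.36. The zinc finger factor Egr1 was at 4515 units in the luteoma and 2385 units in the tumour. The mean log2 level of this list was 10.85 in the tumour, 11.31 in the luteoma and 11.26 to 11.58 elsewhere. Of 24 detoxification genes the glutathione transferase Gsta3 was called at 6178 units in the luteoma, against 565 units in the tumour and the epoxide hydrolase Ephx2 at 13090.4 units in the luteoma and 1849 units in the tumour, both higher, for a median of 0.19. Of the 14 nuclear receptors and gonadal factors 10 were lower, with a median of -0.42. Nr5a1, the steroidogenic factor that binds the NR5A letters, was at 4818 units in the luteoma, against 5524 units in the tumour.

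The 2 arrays contributed unequally to the differences. Of the 213 probe sets higher in the luteoma, the tumour alone lay below the other 7 conditions in 98, the luteoma alone above them in 38, both in 58 and neither in 19. Of the 138 lower, the tumour alone lay above the others in 79, the luteoma alone below them in 10, both in 39 and neither in 10. Over all 6408 probe sets the luteoma was above the other 7 in 15% and below them in 14.8%, and the tumour was above them in 23.4% and below them in 20.9%. The tumour was therefore the more frequent outer array both in the called probe sets and in all of them.

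Some of the same probe sets also differed between the strains without the tumour or luteoma. Between hybrid and CF-1 wild types of 5 months, 82 of all 6408 probe sets were at least 3-fold higher in the hybrid (1.28%) and 132 lower (2.06%). Of the 213 higher in the luteoma 8 were higher in the hybrid (3.76%), or 9.76% of those 82, and 16 were lower (7.51%). Of the 138 lower in the luteoma 8 were lower in the hybrid (5.80%), or 6.06% of those 132, and 7 were higher (5.07%). Both directions were thus more frequent among the called probe sets than among all. Between wild types of 2 months, with 38 higher in the hybrid (0.593%) and 24 lower (0.375%) over all, 7 of the 213 were higher (3.29%) and 4 lower (1.88%), and 2 of the 138 were lower and 2 higher (1.45% each). Between the cystic ovaries, with 40 higher in the hybrid (0.624%) and 53 lower (0.827%) over all, 5 of the 213 were higher (2.35%) and 3 lower (1.41%), and 4 of the 138 were lower (2.90%) and 2 higher (1.45%). The difference between these shares was not tested. Ptgds was an example of no fixed strain order, since at 5 months it stood at 76.8 units in the hybrid wild type and 773 units in the CF-1 one, and at 2 months at 669 units in the hybrid and 61.3 units in the CF-1 one.

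The hCG-treated CF-1 ovary, labelled a luteoma in the tumour's own strain, stood nearer the hybrid luteoma in 167 of the 213 higher probe sets (78.4%) and in 101 of the 138 lower ones (73.2%). The other 6 conditions, wild types included, were nearer the luteoma in 62.9% to 78.4% of the higher and in 63.0% to 71.0% of the lower ones. Nearness to the luteoma was thus shared by all 7. In 76 of the higher and 39 of the lower probe sets all 7 stood nearer the luteoma, and in 6 and 5 all 7 stood nearer the tumour. In Star, Ptgfr and Abcb1b the hCG-treated ovary had 22158, 15676 and 5480.5 units, nearer the luteoma than the tumour. In Ptgds, Rln1, Serpina6 and Wnt4 it had 1653, 359, 513 and 752 units, well below the luteoma.

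**Figure D5:**
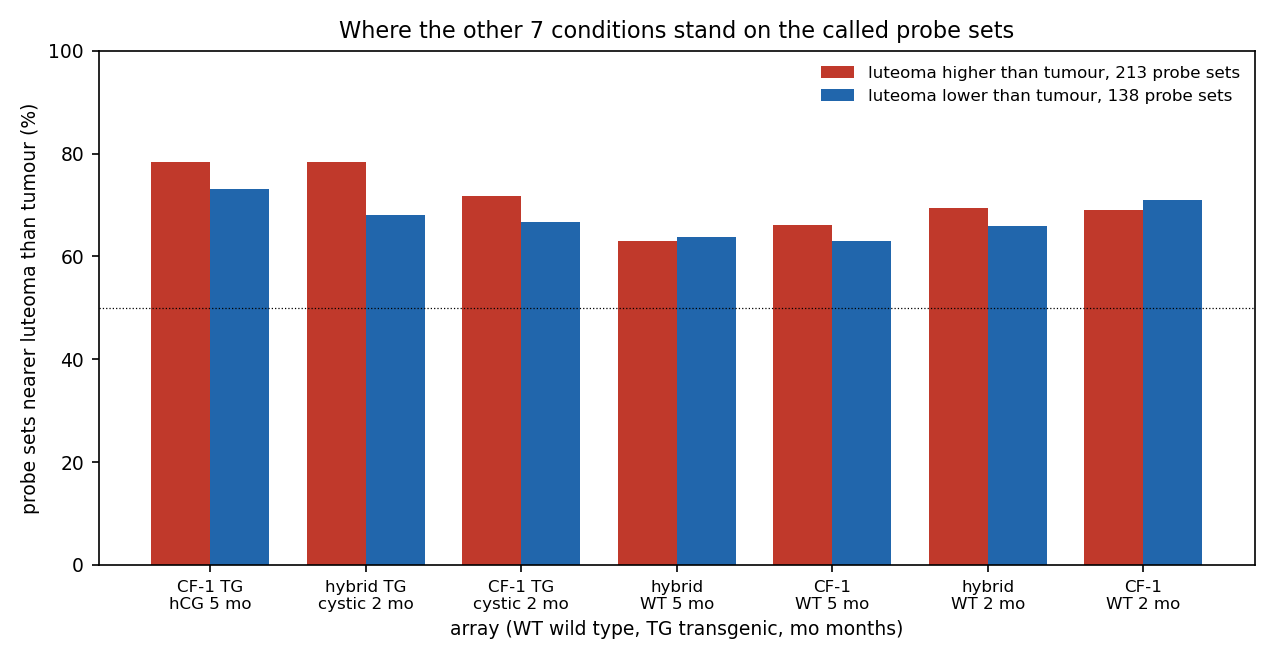
Percent of the probe sets called between luteoma and tumour on which each other condition (1 array per chip type) was nearer the luteoma than the tumour on the log2 scale, in red for the 213 higher and in blue for the 138 lower in the luteoma. All 14 bars lie above the dotted line at 50%, between 62.9% and 78.4%.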

How the data were processed

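RNA of mouse ovaries was measured on 18 oligonucleotide arrays, 9 conditions on each of 2 chip types, with 1 array per condition and chip type. The deposited values are linear intensity values per probe set, as the values themselves show: some lie below 0, and the authors left the arrays at unequal levels. The software and settings that made them are not given in the sources used here. Groups were taken from the sample titles.

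The 55 control probe sets and the 21 probe sets found on both chip types were left out. Each array was scaled to the mean trimmed mean of its chip type, over the 2nd to 98th percentile. For the floor, the absolute 5th and the 25th percentile of each array were compared, the larger was kept, and its median over arrays was taken. The detection limit is 2 floors, and a probe set was compared when it reached the limit on at least 2 of 9 arrays (4122 on chip A, 2286 on chip B). The 3 missing values on chip B stayed missing. A probe set was called when the floored values differed at least 3-fold and the brighter one reached the limit. Intervals cannot be given, since the number of arrays limits the precision.

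Probe sets were named through the platform annotation where it gives 1 symbol (5560 on chip A, 2001 on chip B, while 197 and 27 have several), and 7544 of these 7561 matched a current gene by Entrez number. A gene is given by its probe set with the highest mean. Named genes are the 15 with the largest called difference on either side, the 6 on either side with the largest gap of the luteoma alone and of the tumour alone beyond the 8 other arrays, and members of the 31 lists. The comparison, its members and the lists were chosen with earlier results of these data known. Alternatives varied the floor, the scaling, the fold, the filter, the probe set of a gene and the chip type. The calling was tested on simulated data in which only bright probe sets were changed, by more than the 3-fold rule. The simulated noise was smaller than the disagreement between chips here, so the test does not bear on calls near the floor. Python 3.11.15 with numpy 2.4.6, pandas 2.3.3 and matplotlib 3.10.9 was used.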

Additional observations from a re-analysis of the deposited data

How the results depend on the processing

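No paired analysis was possible because each condition has 1 array per chip type and the replicate numbers name no shared animal. Of the 31 list medians 9, which lay between -0.24 and 0.09, changed sign under at least 1 setting (adhesion, cyclins, glycolysis, growth factors, matricellular, proteases, respiration, prostaglandin and Wnt). Against 213 probe sets higher and 138 lower in the luteoma, doubling the floor gave 139 and 73, and halving it gave 319 and 236. A floor of 20 units gave 647 and 613, a 2-fold rule 486 and 412, and a 5-fold rule 85 and 41. Of the higher ones, the tumour alone lay outside the other ovaries in 143 with the floor halved and 69 with it doubled. The luteoma alone did so in 59 and 17, both in 73 and 45, and neither in 44 and 8. Of the lower ones, the tumour alone lay outside in 120 with the floor halved and 41 with it doubled, the luteoma alone in 27 and 6, neither in 33 and 4, and both in 22 with it doubled. The higher ones shared with the hybrid wild type of 5 months numbered 19 with the floor halved, 0 with it doubled and 5 after quantile normalization, and at 2 months 14 and 2 with the floor halved and doubled. The lower ones shared numbered 22 and 0 at 5 months, and 6 at 2 months with the floor halved. Of 280 values of the 40 genes named by size under the alternatives, 277 kept their direction and call. Sdc4 at 1.49 and Spr at -1.39, each averaged over its probe sets, and U90926 at -1.45 with the floor doubled fell under 3-fold. List medians moved by less than 0.47 in 241 of 248 values. This bound is the SD of disagreement between chips over root 2, a spread of single genes and not of medians. The epithelial median was 1.28, 1.47 and 2.00 with the floor halved, doubled and at 20 units. On chip A alone the matricellular median was -2.38 and that of steroid enzymes 1.502. The oocyte median was 0.09 with a floor of 20 units and the adipocyte median 0.61 with it halved. With a single mouse or pool behind each ovary, differences between animals were not measured. Strain and pathology cannot be told apart, low values under the floor have no order, and folds against them are bounds.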

Other observations

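The genes in this paragraph and the next were chosen after their values were seen and belong to no list above. Ecm1, a secreted matrix glycoprotein, stood at 21173 units in the luteoma, against 1917 units in the tumour, 11.05-fold higher, and the heparan sulfate proteoglycan Sdc1 stood at 3191 units in the luteoma and 163 units in the tumour, at least 10.98-fold higher. Mrap, the accessory protein of melanocortin receptors that the adrenal cortex needs to respond to ACTH, was at 9616 units in the luteoma, against 1886 units in the tumour, 5.10-fold higher. Pcyt1a, the pacing enzyme of phosphatidylcholine synthesis, was at 6074 units in the luteoma and 787 units in the tumour, 7.72-fold higher, and Gm2a, a lysosomal lipid activator, was at 10727 units in the luteoma, against 1933 units in the tumour, 5.55-fold higher. Surface proteins of endothelial cells were among the genes so chosen, with Cd93 at 3871 units in the luteoma and 739.9 units in the tumour and thrombomodulin (Thbd) at 1694 units in the luteoma, against 206 units in the tumour. Picked by their values, they add nothing to the result of the endothelial list.

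On the tumour side Angpt2, a ligand that loosens vessels, was called by 2 probe sets, at 1472 and 781 units in the luteoma and 7366 and 3702 units in the tumour. The amino acid carrier Slc38a5 stood at 3336 units in the luteoma, against 14010.0 units in the tumour, 4.20-fold lower, and the actin bundler Fscn1 at 2533 units in the luteoma and 10939 units in the tumour, 4.32-fold lower. Mycn, a second transcription factor of the Myc family beside Mycl, was at 166 units in the luteoma, against 1517 units in the tumour, at least 5.22-fold lower. Angpt2, picked by its values, differed in the opposite direction from 6 of the 7 genes of the endothelial list.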
